A study of Mus musculus with 10 samples.

Results

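The 9 genes described here encode neuronal adhesion proteins: the teneurins Tenm2, Tenm3 and Tenm4, the contactin-associated proteins Cntnap2 and Cntnap4, the neurexins Nrxn2 and Nrxn3, and the immunoglobulin-type adhesion molecules Ncam1 and Cadm1. They are 9 of the 49554 genes of the RefSeq table used, and every CG position listed with 5-carboxylcytosine (5caC) inside the span of one of them was taken as its site. The genes were chosen by values of this same table: their numbers of listed sites and their ratios between media were known when they were picked, so those values are a description and carry no test. Genomic DNA of mouse embryonic stem cells was compared in 4 groups of 2 technical replicates: wt cells in serum, wt cells in serum-2i, Tdg cells in serum and Tdg cells in serum-2i. Tdg encodes thymine DNA glycosylase, which removes 5caC from DNA, and the labels give this gene name without the kind of alteration or the number of clones. All groups grew without feeder cells in medium with fetal bovine serum and the cytokine LIF, which supports self-renewal. Serum-2i also held 2 small molecules, 3 µM CHIR99021 and 1 µM PD0325901, which block the kinases GSK3 and MEK. The sources used here name no mouse strain and no age. The negative control, serum-grown cells without the Tet enzymes that produce 5caC, is not analysed here. No RNA was measured, so the labelled cell type could not be checked against marker genes.

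Teneurins are large transmembrane proteins that bind latrophilin receptors across the cell gap and guide the matching of axons with their targets. Neurexins and contactin-associated proteins are distantly related presynaptic and axonal proteins: neurexins bind neuroligins at synapses, and contactin-associated proteins hold ion channels and contactins in place along axons. Ncam1 and Cadm1 bind copies of themselves and related proteins through immunoglobulin domains. In the mark measured here, Tet enzymes oxidise 5-methylcytosine stepwise to 5caC, and Tdg with base excision repair then replaces it by an unmodified cytosine, so that 5caC is normally short-lived.

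The deposited value of a site is its mean coverage over the technical replicates of a group, and each group was listed only from a minimum upward, which was 3 in serum wt, 4 in serum-2i wt and 6 in both Tdg groups. A position that is missing from a group therefore has an unknown value below that level, not a value of 0. The groups held 8685 (serum wt), 110753 (serum-2i wt), 374488 (serum Tdg) and 689303 (serum-2i Tdg) sites. With 1 value per group there was no replicate spread to set a difference against. A ratio below is the log2 ratio of a gene's share of the summed coverage of its group, with a 95% interval meant for counting error only. The interval treats coverage at different sites as independent and is too narrow where a read covers several sites. A gene was called higher or lower at a difference in share of 2-fold or more, provided that the interval excluded 0.

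Promoter windows, from 250 bases before to 50 bases after a tabulated transcription start, were at hand for 5 of the 9 genes (9 windows, 71 CGs), from RefSeq on GRCm38.p6, the assembly called mm10. Only the window at the start of the Tenm4 span held listed sites, on 5 of its 6 CGs. It is shown with the window of the second tabulated Tenm4 start, which held none, and with that of an internal Cntnap2 start, whose sides differed in the density of sites. All are on the + strand and read 5′ to 3′, and capitals mark each CG.
Tenm4 first start, chr7:96170994-96171293: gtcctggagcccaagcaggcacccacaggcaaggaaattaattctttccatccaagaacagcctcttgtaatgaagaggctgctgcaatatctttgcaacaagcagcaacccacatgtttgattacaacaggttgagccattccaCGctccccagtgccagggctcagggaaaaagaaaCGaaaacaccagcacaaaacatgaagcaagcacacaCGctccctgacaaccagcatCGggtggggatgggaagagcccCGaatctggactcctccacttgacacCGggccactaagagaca
Tenm4 second start, chr7:96211421-96211720: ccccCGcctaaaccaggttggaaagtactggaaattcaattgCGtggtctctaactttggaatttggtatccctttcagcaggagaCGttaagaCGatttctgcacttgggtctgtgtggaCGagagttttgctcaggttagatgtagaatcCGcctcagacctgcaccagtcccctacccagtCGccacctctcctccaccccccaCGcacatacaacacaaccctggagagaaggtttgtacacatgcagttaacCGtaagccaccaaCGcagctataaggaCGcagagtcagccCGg
Cntnap2 internal start, chr6:47244146-47244445: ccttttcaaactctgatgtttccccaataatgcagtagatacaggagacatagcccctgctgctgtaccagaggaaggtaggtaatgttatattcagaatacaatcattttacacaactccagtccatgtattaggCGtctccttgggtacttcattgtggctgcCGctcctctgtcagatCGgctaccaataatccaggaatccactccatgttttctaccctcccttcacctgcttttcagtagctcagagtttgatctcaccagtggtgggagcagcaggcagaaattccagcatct
In the first Tenm4 window the CG at -105 from the start was listed in serum-2i wt cells alone, with a coverage of 7.5, and the CG at -71 in no group. The CG at -35 had a coverage of 8.5 in serum Tdg and 39.5 in serum-2i Tdg cells. The CG at -15 had 29 and 28 in the same order, that at 7 had 12.5 and 28, and that at 33 had 22.5 and 33. The 4 CGs around the start were thus listed in both Tdg groups, at a like coverage for 1 of them and at a higher coverage in serum-2i for the other 3. Among all 32619 RefSeq windows of this length, 16.8% held a site in serum Tdg and 12.6% in serum-2i Tdg cells, and 2.35% and 1.04% held at least 4. The second Tenm4 window has 12 CGs and the internal Cntnap2 window 3, with none listed in any group. The windows of Tenm2, Tenm3, Nrxn3 and the first Cntnap2 start held no listed site either.

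Together the 9 genes span 8177.72 kb. They held 16 sites in serum wt, 286 in serum-2i wt, 514 in serum Tdg and 1882 in serum-2i Tdg cells. That was 0.184%, 0.258%, 0.137% and 0.273% of all sites of the group, so their share of the listed sites was about as large in both serum-2i groups and smaller in both serum groups. Per length, they held 0.196, 3.50, 6.29 and 23.0 sites per 100 kb in that order. The 2427 protein-coding genes of over 100 kb, pooled, held 0.209, 4.50, 10.9 and 28.1 sites per 100 kb. Pooled, the 9 genes thus lay below the pooled long genes in each group. The median of the single long genes was 0, 3.46, 6.27 and 22.5. That of the 9 single genes was higher in each group, at 0.081, 5.38, 9.10 and 30.9, and the first of these rests on 1 site. The mean coverage of their sites was 5.03, 8.22, 18.0 and 17.9. Each value is from bulk DNA, in which fewer cells with the mark and less of it per cell cannot be told apart. Every one of the 9 genes had a site in serum-2i wt, serum Tdg and serum-2i Tdg cells, and 5 had one in serum wt cells. Of the 2427 long genes, 88.1%, 92.5% and 98.5% had a site in the former 3 groups and 29.7% in serum wt cells.

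**Figure D1:**
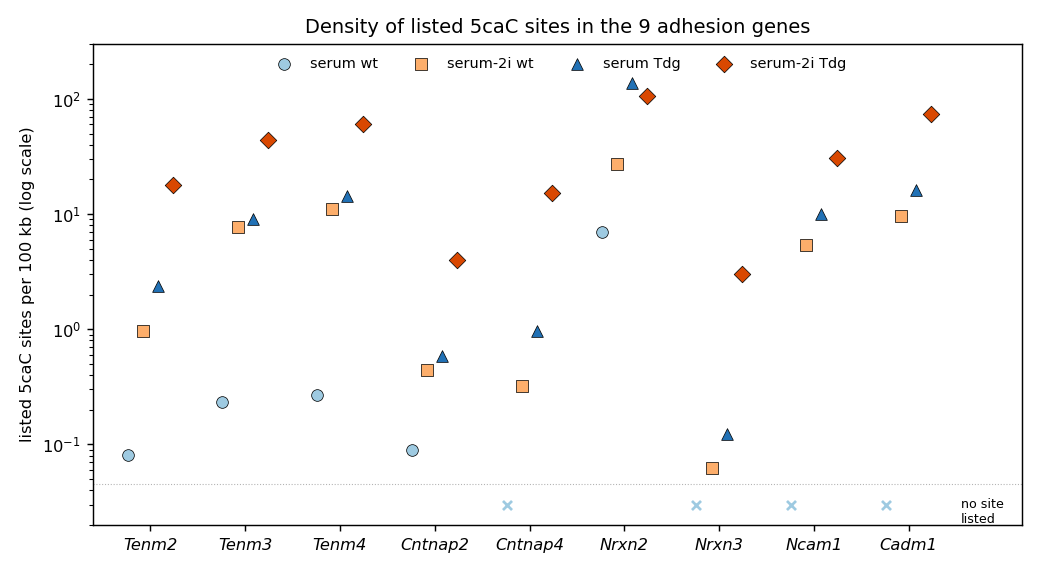
Listed 5caC sites per 100 kb of span (log scale) in the 9 genes, with 1 symbol per group and a cross where no site was listed. In 8 genes the serum-2i Tdg group is the densest, from 3.04 in Nrxn3 to 74.4 in Cadm1, and in Nrxn2 the serum Tdg group is, at 138 against 106.

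Of the teneurins, Tenm3 held the most sites in each group. Tenm3 (chr8:48225665-49522824, 1297.16 kb), a teneurin of visual and hippocampal wiring, had 3 sites in serum wt, 101 in serum-2i wt, 118 in serum Tdg and 568 in serum-2i Tdg cells. Their summed coverage was 15, 818, 1969 and 9863.5. Serum-2i wt cells thus listed nearly as many Tenm3 sites as serum Tdg cells, at a lower coverage. Tenm4 (chr7:96171244-96911093, 739.85 kb), a teneurin needed for early mouse development and for myelination, had 2, 82, 107 and 449 sites in the same order, with summed coverages of 11.5, 726.5, 1802.5 and 8530. Tenm2 (chr11:36006656-37237053, 1230.4 kb), a synaptic latrophilin ligand, had 1, 12, 29 and 219 sites, with 3.5, 79, 374.5 and 3770. Tenm2 and Tenm3 differ little in length, and Tenm2 held fewer sites in every group. The densities in serum-2i Tdg cells were 17.8 sites per 100 kb in Tenm2, 43.8 in Tenm3 and 60.7 in Tenm4.

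The contactin-associated genes were sparse. Cntnap2 (chr6:45060061-47301393, 2241.33 kb), which gathers potassium channels beside the nodes of myelinated axons, had 2 sites in serum wt, 10 in serum-2i wt, 13 in serum Tdg and 89 in serum-2i Tdg cells, with summed coverages of 14.5, 75.5, 110 and 1564. Cntnap4 (chr8:112569798-112882707, 312.91 kb), a relative found at synapses of inhibitory interneurons, had no site in serum wt, 1 in serum-2i wt, 3 in serum Tdg and 48 in serum-2i Tdg cells. The coverages of the latter 3 groups were 5.5, 45.5 and 777. Both genes had few sites outside the serum-2i Tdg group, and there Cntnap4 (15.3 sites per 100 kb) was denser than Cntnap2 (3.97).

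The neurexins stood at opposite ends of the density scale. Nrxn2 (chr19:6418756-6533217, 114.462 kb), the shortest of the 9 genes, had 8 sites in serum wt, 31 in serum-2i wt, 158 in serum Tdg and 121 in serum-2i Tdg cells, with summed coverages of 36, 274, 3579 and 2109.5. Among the 2427 long genes its density ranked 6, 49, 10 and 172 in the same order, counted from the densest. Nrxn3 (chr12:88722701-90334935, 1612.23 kb) had no site in serum wt, 1 in serum-2i wt, 2 in serum Tdg and 49 in serum-2i Tdg cells, with coverages of 13, 25 and 734.5 in the latter 3. Nrxn2 was the only one of the 9 with more sites in serum Tdg than in serum-2i Tdg cells. In serum Tdg cells its density was 138 sites per 100 kb and that of Nrxn3 was 0.124.

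The immunoglobulin-type genes lie on chromosome 9. Ncam1 (chr9:49502129-49799393, 297.265 kb), the neural cell adhesion molecule that carries polysialic acid, had no site in serum wt, 16 in serum-2i wt, 30 in serum Tdg and 92 in serum-2i Tdg cells. Its summed coverages were 121.5, 450 and 1717.5 in the latter 3 groups. Cadm1 (chr9:47530170-47862280, 332.111 kb), a synaptic and epithelial adhesion molecule, had no site in serum wt, 32 in serum-2i wt, 54 in serum Tdg and 247 in serum-2i Tdg cells, with 238, 910.5 and 4703.5. Cadm1 was the denser one in each of these 3 groups, and in serum-2i Tdg cells it held 74.4 sites per 100 kb against 30.9 in Ncam1. Part of the Ncam1 sites lay where another gene's span overlaps, 23 of 92 in serum-2i Tdg cells, against 8 of 247 in Cadm1.

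In order of density in serum-2i Tdg cells, the genes ran from Nrxn2 (106 sites per 100 kb) through Cadm1 (74.4), Tenm4 (60.7), Tenm3 (43.8), Ncam1 (30.9), Tenm2 (17.8) and Cntnap4 (15.3) to Cntnap2 (3.97) and Nrxn3 (3.04). Whether neighbours in this order differ beyond a replicate spread could not be computed. In the other Tdg group, in serum, Nrxn2, Cadm1 and Tenm4 were again the densest 3, with 138, 16.3 and 14.5, while Ncam1 (10.1) stood above Tenm3 (9.10). The genes whose summed coverage per kb over the 4 groups lay closest to the median of the 9, out of 21622 compared, were Sgpp2, Slc44a5, Stam2, Car8 and Spag9. Their Euclidean distances on the log2 scale were 0.38, 0.38, 0.39, 0.39 and 0.39. Of the 9 genes themselves Ncam1 lay closest to that median, at 0.36, and Nrxn3 farthest, at 8.29.

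The comparison of media in Tdg cells asks how 5caC differs between the culture states, which the series design calls naive and primed. The share of coverage was higher in serum-2i than in serum for 8 of the 9 genes and lower for Nrxn2, with a median log2 ratio of 1.65. Among all 18050 genes compared, 29.6% were higher and 25.7% lower, with a median of 0.10. Among the 2175 long protein-coding genes compared, 51.7% were higher and 3.26% lower, with a median of 1.05. The genes were chosen with this comparison known, so nothing is read from their count against these shares.

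By role, the log2 ratio in Tdg cells was 2.61 (95% counting interval 2.50 to 2.72) for Tenm2. For Tenm3 it was 1.60 (1.55 to 1.65) and for Tenm4 1.52 (1.47 to 1.57). The intervals of Tenm3 and Tenm4 overlapped and that of Tenm2 lay above both. No replicate spread enters the intervals given here, so whether they overlap is no test between genes. Cntnap2 stood at 3.11 (2.91 to 3.31) and Cntnap4 at 3.37 (3.07 to 3.69), with overlapping intervals. Nrxn3 had the highest ratio of the 9, 4.15 (3.75 to 4.59), which rests on 2 sites in serum. Nrxn2 stood at -1.48 (-1.54 to -1.43), so the neurexins lay on opposite sides of 0. Ncam1 stood at 1.21 (1.10 to 1.32) and Cadm1 at 1.65 (1.57 to 1.72). By number of sites in place of coverage the ratio of Ncam1 was 0.74, under the 2-fold limit, and the other 7 genes stayed higher.

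**Figure D2:**
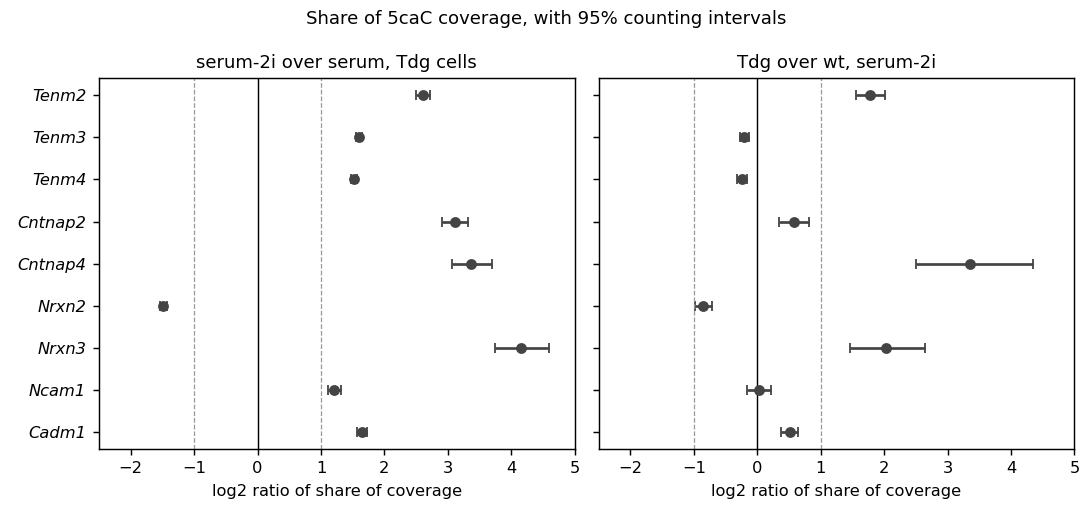
Log2 ratio of the share of 5caC coverage of each gene, serum-2i over serum in Tdg cells (left) and Tdg over wt in serum-2i (right), with 95% counting intervals and dashed lines at 2-fold. On the left 8 genes lie above 1 and Nrxn2 at -1.48, and on the right Tenm2, Cntnap4 and Nrxn3 lie above 1.

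Over the long protein-coding genes as a whole, the ratio between media was larger in longer classes of genes. Its median was 0.77 for spans of 100 to 200 kb (1274 genes), 1.27 for 200 to 500 kb (694), 1.78 for 500 to 1000 kb (151) and 2.59 for 1000 to 5000 kb (56). The share of genes called higher was 42.7%, 60.7%, 73.5% and 87.5% in the same order, and the share called lower 4.4%, 1.87%, 1.32% and 0%. Of the 4 genes in the longest class, Nrxn3 ranked 7 of 56 from the highest ratio, Cntnap2 19, Tenm2 27 and Tenm3 43. Tenm4 ranked 88 of 151 in its class, and Cntnap4 37, Cadm1 250 and Ncam1 362 of 694 in theirs. The genes thus lay in the upper, middle and lower parts of their length classes. Nrxn2 ranked 1256 of 1274 in the shortest class.

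**Figure D3:**
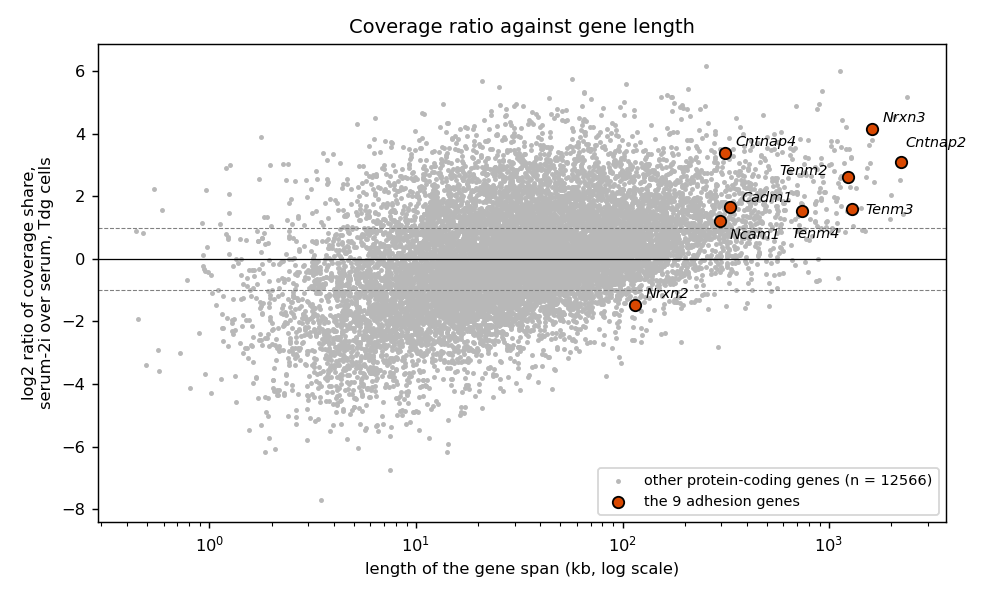
Log2 ratio of the share of coverage, serum-2i over serum in Tdg cells, against the length of the span (kb, log scale), for 12566 other protein-coding genes (grey) and the 9 genes (orange), with dashed lines at 2-fold. Of the 9 genes Nrxn2, at 114.462 kb the shortest, is the only one below 0.

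The comparison of Tdg with wt cells in serum-2i asks which genes hold more of the 5caC seen in Tdg cells. It shares its Tdg group with the comparison above. Of the 9 genes 3 were called higher, none lower and 6 lay between, with a median of 0.51. Among all 15053 genes compared 12.2% were higher and 21.5% lower (median -0.19), and among the 2096 long ones 13.7% and 5.58%. Tenm2 stood at 1.78 (1.56 to 2.02), from 12 sites in wt cells. Cntnap4 at 3.35 (2.50 to 4.35) and Nrxn3 at 2.03 (1.47 to 2.65) each rest on 1 site in wt cells, and leaving out the site of highest coverage of each gene and group removed that site. Tenm3 (-0.20) and Tenm4 (-0.24), which had the most wt sites, differed little, and so did Ncam1 at 0.03. Cntnap2 stood at 0.58, Cadm1 at 0.51 and Nrxn2 at -0.85, all under 2-fold. With sites in another gene's span left out, Nrxn2 was called lower at -1.10, and at a fold of 1.5 it was called lower too. Over all sites the summed coverage was 13.9 times as high in Tdg cells, and a log2 ratio of 0 stands for a gene whose coverage differed by that factor.

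Comparisons with serum wt cells rest on 16 sites in 5 genes, each gene holding from 1 to 8. Between media in wt cells, Tenm3 (1.40, 0.88 to 1.98) and Tenm4 (1.62, 1.02 to 2.28) were called higher in serum-2i. Cntnap2 (-1.99, -2.57 to -1.36) and Nrxn2 (-1.44, -1.79 to -1.06) were called lower, and Tenm2 was between at 0.13. Among all 3454 genes compared, 4.52% were higher and 61.8% lower, and with scaling by the median ratio 26.8% and 24.2%. Under that scaling, which shifts all ratios by 1.64, 3 of the 5 genes were higher and 0 lower: Tenm2 was called higher at 1.77, Cntnap2 lost its call at -0.34 and Nrxn2 turned to 0.20. By number of sites Tenm3 (1.40), Tenm4 (1.68) and Cntnap2 (-1.35) stayed past 2-fold, but their calls were lost because the intervals included 0. In that setting 0.029% of all genes were called higher and 7.64% lower. Among the 695 long genes compared, 17.0% were higher and 27.9% lower. The other 4 genes had sites in serum-2i wt cells alone. Between Tdg and wt cells in serum, none of the 5 was called higher, and Cntnap2 was called lower at -4.51 (-5.08 to -3.90), from 2 sites in wt cells. Tenm2 (-0.70), Tenm3 (-0.40), Tenm4 (-0.15) and Nrxn2 (-0.80) lay between. With scaling by the median ratio these 4 turned positive, to 0.67, 0.96, 1.22 and 0.56, and Tenm4 was called higher. Tenm4 was also called higher (1.52) with the highest site left out and lower (-1.11) at a common minimum of 6. By number of sites the call of Cntnap2 was lost (-2.73), and 4.62% of all genes were called lower. Among the 708 long genes compared, 6.92% were higher and 42.4% lower. Among all 3871 genes compared, 3.46% were higher and 57.6% lower, and 24.5% and 25.8% with scaling by the median ratio, which shifts all ratios by 1.36.

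Where the sites lay along the spans was not used in choosing the genes. Each span was cut into 10 segments of equal length. In Cadm1, the outermost segment at either end together held 40 of 54 sites (74.1%) in serum Tdg and 67 of 247 (27.1%) in serum-2i Tdg cells. Its middle 4 segments held 1 site in serum and 72 in serum-2i. In Ncam1 the middle 4 segments held 0 of 30 sites in serum Tdg and 29 of 92 in serum-2i Tdg cells, while its outermost segments held 20% and 27.2%. In Tenm4 the outermost segments held 57.0% and 29.0%, and the middle ones 17.8% and 35.6%. The first segment of Tenm4, which begins at the first start shown above, held 37 of 107 sites (34.6%) in serum and 50 of 449 (11.1%) in serum-2i. Tenm3 went the other way in the middle segments, with 50% in serum and 41.2% in serum-2i, and held 22.9% and 16.5% in the outermost ones. Over all 9 genes the outermost segments held 34.6% of the sites in serum Tdg and 22.8% in serum-2i Tdg cells, against 32.8% and 23.3% over the long genes, and the middle ones 28.2% and 38.0% against 29.8% and 37.0%. Within 10 kb of a span end lay 15.8% and 6.32% of the sites of the 9 genes, against 21.6% and 12.0% for the long genes. These shares are not like for like, because a fixed 10 kb is a smaller part of a longer span. Of the 2175 long genes compared between media above, 1274 span 100 to 200 kb, and of the 9 genes only Nrxn2 does.

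**Figure D4:**
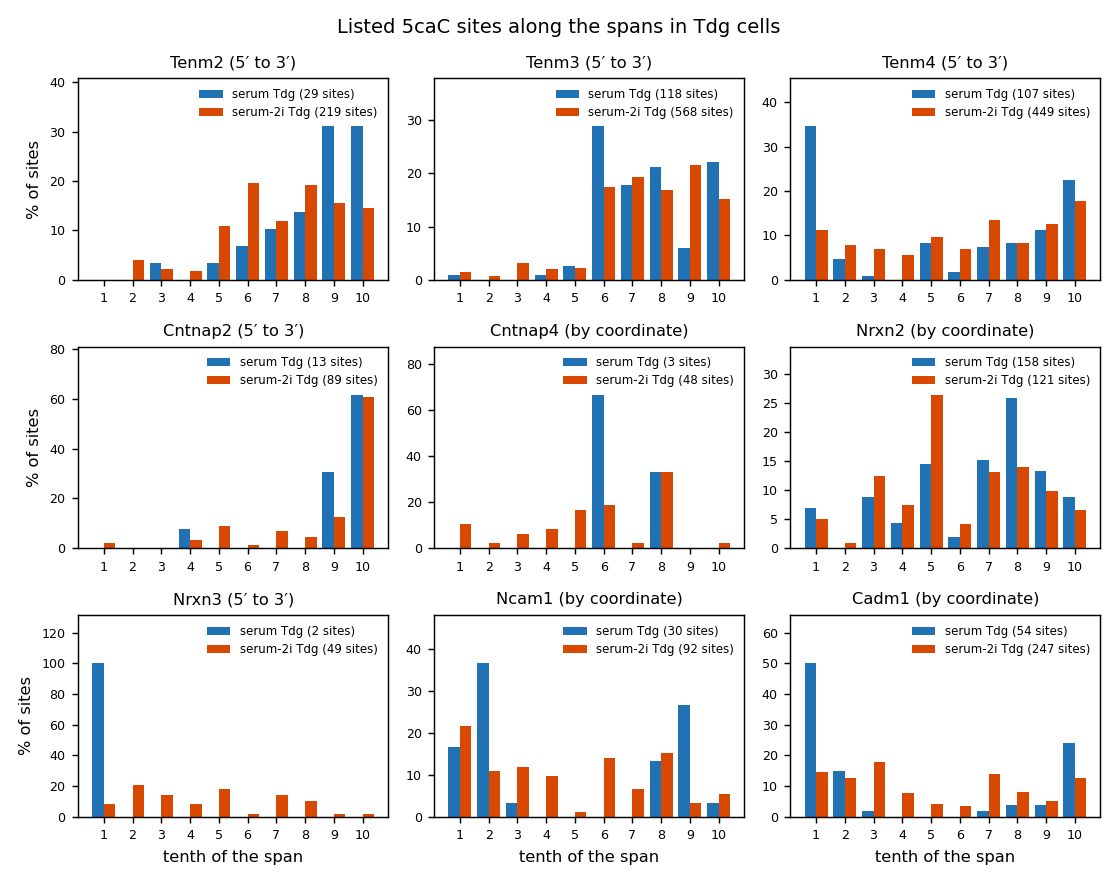
Percent of the listed sites of each gene in each of 10 equal segments of its span, for serum Tdg (blue) and serum-2i Tdg cells (orange), read 5′ to 3′ where the strand was tabulated and by coordinate otherwise. Tenm2, Tenm3 and Cntnap2 carry their sites in the 3′ part in both groups, and in Cadm1 74.1% of the serum sites lie in the outermost segments.

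Tenm3, Tenm2 and Cntnap2 carried their sites towards the 3′ end. In serum-2i Tdg cells the 5 segments towards the 3′ end held 513 of 568 sites in Tenm3 (90.3%), 177 of 219 in Tenm2 (80.8%) and 76 of 89 in Cntnap2 (85.4%). Over 1377 long genes with a known strand and at least 20 sites the median was 50%, and 21 of them were at or above Tenm3, 70 at or above Tenm2 and 44 at or above Cntnap2. Tenm4 (59.0%) and Nrxn3 (30.6%) did not share this. The last segment of Cntnap2 held 54 of its 89 sites (60.7%), against a median of 10.6% over these long genes, of which 5 were at or above it.

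Site densities after and before the tabulated internal starts differed in both directions. Downstream of the internal Cntnap2 start at position 47244396, whose window is shown above, there were 50.9 sites per 100 kb in serum-2i Tdg cells (29 sites). In the part of the span before it there were 2.75 (60 sites). That part includes a stretch of 646.157 kb without any site. The last segment of the span, which contains this start, held 54 sites, so some of these lay ahead of the start. In serum Tdg cells the densities were 10.5 and 0.320. For Tenm2 the densities after and before the start at 36944241 were 22.3 and 3.42 in serum-2i Tdg cells, and for Tenm3 those after and before 48674690 were 72.8 and 28.4. The second Tenm4 start, at 96211671, went the other way, with 59.6 after and 79.2 before it in serum-2i Tdg cells and 11.0 and 74.2 in serum Tdg cells. In Nrxn3 the densities in serum-2i Tdg cells were 3.12 after and 1.39 before the start at 88794504, 2.90 and 3.90 around 88953390, and 1.34 and 3.85 around 89812483. No site of any group was listed in a stretch of 646.157 kb of Cntnap2 (chr6:45274701-45920857), 28.8% of its span. Both serum Tdg sites of Nrxn3 lay within 1 kb of the low end of the span, its 5′ end. Densities here are per length, and the number of CGs in these stretches is not used.

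Runs of sites at most 100 bases apart were counted as well. Runs of at least 5 sites numbered 28 among the 1882 sites of serum-2i Tdg cells and 12 among the 514 of serum Tdg cells. They were not counted over other genes. The longest in serum-2i Tdg cells was in Cntnap4, with 10 sites at chr8:112803063-112803450 and a mean coverage of 15.4, where serum Tdg cells listed 1 site. It held 10 of the 48 sites of that gene. In serum Tdg cells the longest runs had 8 sites. One of them, in Nrxn2 at chr19:6507396-6507643, had a mean coverage of 32.8 and held 4 sites in serum-2i Tdg cells. Another, in Tenm3 at chr8:48722810-48723049, had a mean of 30.3 over 8 sites in serum and of 13.9 over 7 sites in serum-2i. In Tenm4 the reverse was seen at chr7:96521911-96522099, with 57.1 over 7 sites in serum-2i and 25.5 over 6 in serum.

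In serum Tdg cells the top 3 sites of the 9 genes were all in Nrxn2. They lay on chromosome 19 at 6495074, 6492334 and 6532921, with coverages of 73, 72 and 69.5, and had 36, 31 and 28 in serum-2i Tdg cells. In serum-2i Tdg cells the top 3 were in the teneurins. They were at 36553515 in Tenm2 (136, against 25.5 in serum), at 49462217 in Tenm3 (111.5 against 18.5) and at 96902520 in Tenm4 (109 against 31). All 6 were listed in both Tdg groups and in neither wt group. They were picked for a high value in 1 medium, so a lower value in the other is close to fixed by the choice. The highest Nrxn2 site in serum-2i Tdg cells had a coverage of 100, against 19 in serum, which is above the highest Nrxn2 site of serum Tdg cells.

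Of the 514 serum Tdg sites in the 9 genes, 310 (60.3%) were also listed in serum-2i Tdg cells, against 52.8% over the whole series. They made up 16.5% of the 1882 serum-2i Tdg sites, against 28.7% over the series. Of the 286 sites of serum-2i wt cells, 152 (53.1%) recurred in Tdg cells of the same medium and 33 (11.5%) in serum Tdg cells, against 49.1% and 17.7% over the series. Nrxn2 shared 75 sites between the Tdg groups, 47.5% of its serum and 62.0% of its serum-2i sites, and Nrxn3 shared none. Of the 16 serum wt sites, 7 (43.8%, against 54.5% over the series) recurred in serum Tdg cells, 6 of them in Nrxn2 and 1 in Cntnap2.

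In all, 2225 positions were listed in the 9 genes. Of these, 1789 were listed in 1 group, 399 in 2, 37 in 3 and 0 in all 4. None of the 16 serum wt sites recurred in serum-2i wt cells, against 11.4% over the series, so no position could be listed in all 4. Such classes were not counted over the whole series, so the numbers here are not set against other genes. Serum-2i Tdg cells alone held 1449, serum Tdg cells alone 201 and serum-2i wt cells alone 132. Nrxn2 held 14 of the 37 positions listed in 3 groups, in the shortest span of the 9.

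At sites listed in both Tdg groups, the coverage could be compared base by base. The median over the 310 shared sites was 16 in serum and 20 in serum-2i, and serum-2i was higher at 199 of them (64.2%), against 50.9% over the whole series. In Nrxn2 the medians were 27 and 15, and serum-2i was higher at 24 of 75 sites (32%). In Tenm4 they were 14 and 25.5, with serum-2i higher at 54 of 70, and in Cntnap2 they were 8 and 18.25, with serum-2i higher at 10 of 10. Tenm3 was more even, with 15.5 and 18.5 and serum-2i higher at 47 of 75. These are coverages as deposited, not shares, and serum-2i Tdg cells had 1.65 times the summed coverage of serum Tdg cells. Nrxn2 lay lower in serum-2i in its number of sites and at the sites shared between the media. These are parts of the ratio between media that was known when the genes were chosen. They are therefore no separate support for it, and nothing is read from the shares against the series.

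**Figure D5:**
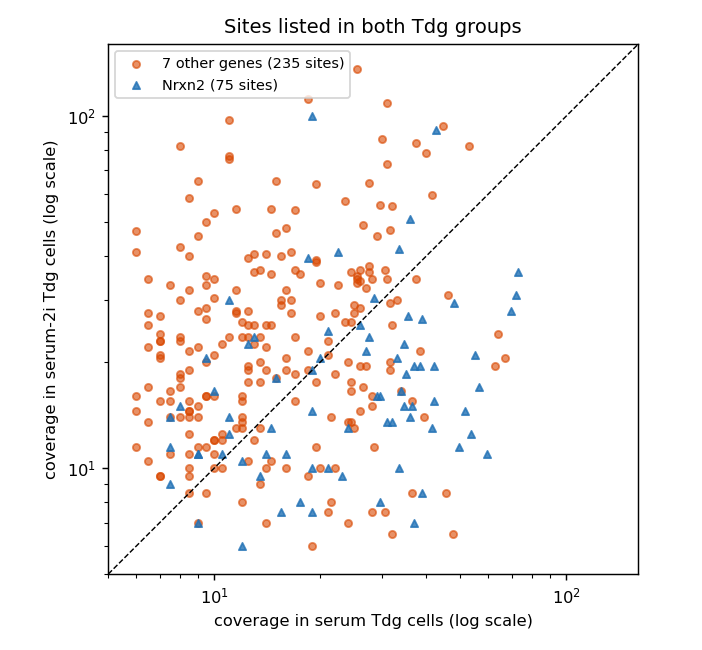
Coverage of the sites listed in both Tdg groups, serum (x) against serum-2i (y), both on log scales, with the line of equal coverage. Serum-2i is higher at 24 of 75 sites in Nrxn2 (triangles), most of which lie below the line, while sites of the 7 other genes with shared sites lie mostly above it.

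A list of 52 other adhesion genes covered relatives, receptors and ligands of the 9, and it too was drawn up with earlier results of these data known. Of these, 44 passed the coverage minimum and 40 had sites in both Tdg groups. The share of coverage in Tdg cells was higher in serum-2i for 16 (40%), lower for 6 (15%) and between for 18, with a median of 0.85. Over all genes these shares were 29.6% higher and 25.7% lower, and over the long genes 51.7% and 3.26%. The contactins and contactin-associated genes had 4 higher and 2 lower of 7 (median 1.67), and the immunoglobulin-type genes 5 higher and none lower of 12 (0.85). The relatives and ligands of neurexins had 5 higher and 3 lower of 11 (0.51). The relatives and receptors of teneurins had 1 higher and 1 lower of 6 (0.02), and synaptic scaffolds 1 higher and none lower of 4 (0.58).

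The highest ratios of that list were 3.75 for Cntn4, an axonal contactin (38 sites in serum-2i against 2 in serum), and 3.54 for Cntnap5c (8 against 1). The lowest were -3.02 for Nlgn2, a neuroligin of inhibitory synapses (10 against 23), -2.82 for Cbln4, a secreted cerebellin that binds neurexins (2 against 7), and -2.37 for Nlgn3, a neuroligin on the X chromosome (9 against 15). Spans of the 16 genes called higher ran from 161.759 kb (Lrrtm3) to 2197.43 kb (Lsamp), and those of the 6 called lower from 7.131 kb (Cbln4) to 78.72 kb (Flrt1). These ranges did not overlap, but the genes of the list without a call ran from 13.279 kb (Flrt3) to 1485.41 kb (Magi2), across both. Over the protein-coding genes as a whole, length did not separate the calls. Of the 2175 long ones compared, 71 were called lower, Nrxn2 (114.462 kb) among them. Some protein-coding genes of under 100 kb were called higher. Cntn6 (370.745 kb) was the one gene of the list without a listed site in any group.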

How the data were processed

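The submitters' processing notes name the genome build mm10; no aligner, site caller or rule for listing a site is given in the sources used here. Per the labels' protocols, 5-hydroxymethylcytosine and unmodified CGs were blocked, 5caC was decarboxylated and tagged by an engineered methyltransferase, and tagged fragments were enriched, primed and sequenced on an Ion Proton. The authors deposited 1 coverage signal per CG position and group, in steps of 0.5, read as the mean of 2 technical replicates. Planned count models with replicates could not be run on 1 value per group, so no p-value was computed and the planned fallback was used.

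Sites were assigned to RefSeq spans (GRCm38.p6) without flanks, and a site in overlapping spans counted for each. Deposited positions proved to be counted from 0: adding 1 placed all 15096 listed positions in RefSeq promoter windows on the C of a CG, and printed positions are counted from 1. Genes were kept from a summed coverage averaging 20 over the 4 groups, which all 9 passed. Intervals are exact conditional Clopper-Pearson intervals at 95% (scipy 1.17.1, Python 3.11.15) and are meant for counting error only. They treat all coverage as independent counts. Reads amplified without molecular identifiers can be copies of the same molecule, and a read can cover several CGs. The intervals are then too narrow even for counting error. The number of reads per library was not known. The calling script was tested on simulated data. The 9 genes and the adhesion list were chosen with earlier results of these data known. Besides the 9, the text names the 3 highest and 3 lowest ratios of the adhesion list (1 of the highest is not reported here), its genes without a site, the 5 genes most like the median of the 9 (log2 of coverage per kb + 0.01), the 3 top sites and a longest run per Tdg group; other runs, and the genes at the ends of ranges of length, were chosen after their values were seen. Alternatives changed the scaling, the coverage minimum, the sites used, the filter and the fold for a call. Strand was tabulated for 5 of the 9 genes.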

Additional observations from a re-analysis of the deposited data

Results flagged for a closer look

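In 2 genes the same contrast pointed in opposite directions in different groups, and neither difference was tested. For Tenm2 the log2 ratio of Tdg over wt was 1.78 in serum-2i and -0.70 in serum, where wt cells had 1 site and the counting interval (-1.75 to 0.62) includes 0. For Cntnap2 the ratio of serum-2i over serum was 3.11 in Tdg cells and -1.99 in wt cells. The call in wt cells was lost with scaling by the median ratio (-0.34), with the highest site left out (-0.97) and by number of sites (-1.35). Its ratio of Tdg over wt was 0.58 in serum-2i and -4.51 in serum, where the call was lost by number of sites (-2.73). With scaling by the median ratio, the serum value of Tenm2 was 0.67. Both negative values of Cntnap2 rest on its 2 sites in serum wt cells, with a summed coverage of 14.5. The median over all genes was -1.64 for the media in wt cells and -1.36 for Tdg over wt in serum, so the median gene has a negative ratio there.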

How the results depend on the processing

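No paired analysis was possible because the table gives 1 value per group, so neither the replicate block nor leaving out a replicate was run. Of 41 alternative values of the counts and shares, 34 stayed within the set limits. With the highest site of each gene and group left out, Tdg over wt in serum-2i called 1 of 7 genes higher (3 of 9 in the main setting). Cntnap4 and Nrxn3 had no wt site left and were not compared, and 18.2% of all genes were called higher (12.2%). Tdg over wt in serum called 1 of 4 (0 of 5), against 10.7% of all genes (3.46%). For the media in wt cells, the number of sites called 0 of 5 higher and a common minimum of 6 called 1 of 4 (2 of 5). Over all genes, 0.029% and 0.31% were called higher in these settings (4.52%). Scaling by the median ratio called 1 of 5 higher for Tdg over wt in serum (0 of 5), against 24.5% of all genes (3.46%). At a minimum of 6, 0% of the serum wt sites lay within 10 kb of a span end (18.8%), with 5 of the 16 sites left. At a minimum of 10, 43.5% of the serum-2i wt sites were also listed in serum-2i Tdg cells (53.1%). Of 216 values of single genes, 61 moved. In all 12 changed sign: 1 that had been called, Nrxn2 between media in wt cells (0.20 with scaling by the median ratio), and 11 that had not. Of the latter 7 belong to Tdg over wt in serum, 3 to Tenm2 between media in wt cells (-0.73 with sites in another span left out, -0.09 by number of sites, -0.24 without span ends) and 1 to Ncam1 for Tdg over wt in serum-2i (-0.11 by number of sites). Scaling by the median ratio shifts all ratios of a comparison by the same amount. For the sign changes in the other settings the cause was not tested. For the media in Tdg cells, 8 genes were called higher in the settings run except 2, which called 7. These were by number of sites, where Ncam1 lost its call, and without the 10 kb at span ends. In the latter Nrxn3 had no serum site left, so 8 genes were compared, and 44.9% of all genes were called higher (29.6% in the main setting). Cadm1 stood at 2.36 without the span ends. The ratio of Nrxn2 ran from -1.59 to -1.27. The 4 serum wt sums of 15 or less limit every comparison with that group, and counts of all genes called by number of sites (9.55% higher and 15.6% lower for the media in Tdg cells) were lower than by coverage.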

Other observations

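The other adhesion genes were also set side by side in the remaining comparisons. For Tdg over wt in serum-2i, 8 of 38 were called higher (21.1%) and 5 lower (13.2%), with a median of 0.37, against 12.2% and 21.5% over all genes. For the media in wt cells, 0 of 10 were higher and 4 lower (40%), and for Tdg over wt in serum 0 of 11 were higher and 5 lower (45.5%). Over all genes 61.8% and 57.6% were lower in these comparisons, and 4.52% and 3.46% higher. RefSeq promoter windows were at hand for 41 of these genes, 60 windows with 985 CGs. In serum Tdg cells 11 windows (18.3%) held a listed site and in serum-2i Tdg cells 6 (10%), and none held 4 or more. Of all RefSeq windows 16.8% and 12.6% held a site, and 2.35% and 1.04% held at least 4. The windows of these genes had a median of 12.5 CGs, against 7 over all windows. Of their CGs 1.62% and 0.61% were listed in the 2 Tdg groups, against 2.76% and 1.78% over all windows.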
